A study of Mus musculus with 15 samples.

Results

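Mouse embryonic stem cells (ESC) of 4 genotypes were each sequenced in a batch a and again, from another culture, in a batch b. The 8 RNA-seq samples of these batches, of 15 in the whole series, were compared here by batch and paired by genotype. Batch a holds 1 sample each of wild type (WT), Hmga1 KO, Hmga1 add-back and Hmga2 add-back, and batch b holds the same 4. All 4 lines come from ESC of a mixed 129Sv-C57Bl/6 background that express the BirA biotin ligase, kept in serum and LIF on feeder cells or gelatine. In the KO, Cas9 indels shifted the reading frame of Hmga1, which encodes a small chromatin protein that binds AT-rich DNA. The add-backs are KO cells with biotin-tagged Hmga1 or Hmga2 cDNA under the CAG promoter at 1 defined genomic site. The KO is 1 clone and both add-backs descend from it, so 3 of the 4 pairs share that clone. Within a batch the libraries were prepared on the same day and run on the same flow cell, and the cultures of a line were harvested on different days. Culture, RNA, library preparation, flow cell and depth therefore changed together between a and b and cannot be told apart. Whether the 4 lines of a batch were cultured or harvested together is not stated. Each batch is 1 round of library preparation and sequencing, so the 4 samples in it are not independent repeats of a batch. The tests measure how alike the difference was in 4 lines.

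Biological and technical variation meet in such a comparison. Serum and LIF keep ESC dividing in a state that fluctuates with density, medium and passage, and stress responses, metal-binding proteins and signalling feedback genes are known to follow these conditions. Libraries from RNA depleted of ribosomal RNA also keep transcripts without poly(A) tails, such as replication-dependent histone mRNAs, small nucleolar RNAs and the RNA of ribonuclease P, and the yield of short or strongly structured RNA and of GC-rich fragments is known to depend on library preparation.

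Counts on genes summed to between 30742900 and 34952100 per sample in batch a and to between 13465400 and 14585400 in batch b, so that a was between 2.13 and 2.6 times deeper in every genotype. Levels are given as CPM, counts scaled to a common library size after TMM normalization. Unless another order is named, 4 values stand for WT, Hmga1 KO, Hmga1 add-back and Hmga2 add-back. The first principal component of the log2 CPM (50.5% of the variance) put the 4 b samples between -36.9 and -19 and the 3 KO-derived a samples between 30.1 and 48.4. WT a stood apart from the rest of its batch, at -13.3 on this component and at 46.8 on the next (18.9% of the variance), where the other 7 samples lay between -20.1 and 9.58. Results are therefore also given without the WT pair, for the number of genes called, for the gene lists and for some single genes.

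Hmga1 itself was lower in b in each line, at 469, 219, 186 and 139 CPM in batch a and 278, 96.9, 124 and 102 CPM in batch b. The log2 difference, here always b minus a, was -0.74 ± 0.12 (SE, adjusted p = 0.00341), and -0.73 without the WT pair (adjusted p = 0.00435). It was smaller, -0.24, and did not pass the test (adjusted p = 0.25) once GC content and length of the transcripts entered as offsets. A frame shift need not remove a transcript, so these counts do not check the KO label. In the Hmga1 add-back the gene was not above Hmga1 KO in batch a (186 against 219 CPM), was slightly above it in batch b (124 against 96.9 CPM) and was below WT in both, so these counts do not show the inserted cDNA, and the line is named by its label throughout. By Western blot the paper reports no Hmga1 protein in the KO and a level comparable to WT in the add-back. For another mapping of RNA reads, it states that values of Hmga1, which has a pseudogene, are likely too low. Hmga2 had 251 and 224 CPM in the Hmga2 add-back and between 12.9 and 24 CPM in the other 6 samples. Its batch difference of -0.37 ± 0.13 did not pass the test (adjusted p = 0.0608). The pluripotency factor Sox2 ranged from 765 to 1083 CPM in a and from 798 to 924 CPM in b (difference -0.15, adjusted p = 0.317). Without the WT pair Sox2 fell by 0.29 on the log2 scale (adjusted p = 0.0372), and WT b was above WT a (919 against 765 CPM). Actb, a cytoskeletal actin often used as a reference, ranged from 1836 to 3146 CPM in a and from 2476 to 2598 CPM in b (0.12, adjusted p = 0.444).

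Of 13898 genes tested with edgeR's quasi-likelihood test, 325 (2.34%) differed at least 2-fold at an adjusted p under 0.01. Of these, 139 (1% of the genes tested) were higher in b and 186 (1.34%) were higher in a. At an adjusted p under 0.05 and no minimum fold, 2584 genes (18.6%) were higher in b and 2372 (17.1%) were higher in a. Counts of list members over all 4 pairs are to be read beside these shares. The sign was the same in all 4 pairs for 325 of the 325 genes, against 51.6% of all genes tested, and in 299 of them the samples of a and b did not overlap, against 33.3% of all genes tested. Most genes named below were chosen for a large difference or a low p. A lack of overlap in them follows in part from that choice. Most differences were small: the 10th and 90th percentiles of the log2 difference over all genes tested were -0.69 and 0.52, and the median was -0.03. Scaling by summed counts alone moved that median to -0.16 and the share of the 2-fold calls that were higher in b from 42.8% to 21.5%.

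Without the WT pair, 671 genes passed the same thresholds, 228 higher in b and 443 higher in a. At an adjusted p under 0.05 and no minimum fold, 2949 genes (21.2%) were then higher in b and 2902 (20.9%) higher in a. Counts of list members without the WT pair are to be read beside these shares. All 325 genes kept their sign and an adjusted p under 0.05 in that fit, and 298 of them passed both thresholds again. Leaving out a KO-derived pair lowered the count instead, to 20 without Hmga1 KO, 119 without the Hmga1 add-back and 112 without the Hmga2 add-back. The WT pair was not used to find the 671 genes and gives a separate reading of them. It moved in the direction of the KO-derived lines in 542 of the 671 (80.8%), 194 of the 228 higher in b and 348 of the 443 higher in a. Its median log2 difference was 0.72 for the first and -0.39 for the second, against 1.3 and -1.28 in the lines that chose them and 0 over all genes tested in WT. The WT pair therefore had the same direction in most of these genes. In the wider set of 5851 genes past an adjusted p of 0.05 without it, the share was 81.6% (4775). Over all genes tested, the WT difference was positive in 50.1%. The 671 genes were chosen for a large difference in the KO-derived lines. The smaller difference in WT may come from that choice alone and is not read as a result about WT.

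Of the 12 genes named for the largest rises in b, 4 are small nucleolar RNAs. Small nucleolar RNAs of the C/D class guide methylation of ribosomal RNA, and are cut from introns of host genes. They carry a box C near the start and a box D near the end. To show which molecules these are, the sequences of 4 that rose and of 1 that fell in b (Snord104, picked after its value was seen) follow, read from the NCBIM37 genome on the strand of the gene, with the first TGATGA (box C) and the last CTGA (box D) in capitals.
Snord15a, chr7:106631295-106631442, minus strand: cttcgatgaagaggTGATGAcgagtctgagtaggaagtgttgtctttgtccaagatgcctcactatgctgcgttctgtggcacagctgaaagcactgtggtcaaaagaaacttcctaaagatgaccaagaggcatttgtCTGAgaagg
Snord82, chr1:88252836-88252905, minus strand: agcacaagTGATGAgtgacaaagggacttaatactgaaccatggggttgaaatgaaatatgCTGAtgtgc
Snord47, chr1:162968213-162968289, plus strand: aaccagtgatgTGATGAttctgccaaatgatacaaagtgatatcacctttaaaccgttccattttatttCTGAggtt
Snord17, chr2:144091715-144091952, minus strand: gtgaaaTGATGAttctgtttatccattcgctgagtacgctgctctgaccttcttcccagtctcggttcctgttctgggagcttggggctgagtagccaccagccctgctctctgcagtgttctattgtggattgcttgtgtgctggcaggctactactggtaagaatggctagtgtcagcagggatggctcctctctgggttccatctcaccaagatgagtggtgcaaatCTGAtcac
Snord104, chr11:106362307-106362376, plus strand: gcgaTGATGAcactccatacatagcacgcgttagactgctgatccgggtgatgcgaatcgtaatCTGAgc

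Snord15a was at 3.99, 2.405, 1.71 and 1.88 CPM in a and at 19.04, 18.9, 17.9 and 18.97 CPM in b, a log2 difference of 2.97 ± 0.21 (adjusted p = 0.000383). For Snord82 the values were 4.28, 4.98, 3.79 and 3.79 CPM in a against 23.04, 19.8, 25.1 and 28.98 CPM in b (2.52 ± 0.17, adjusted p = 0.000316). Snord47 rose from 2.46, 1.98, 1.91 and 3.49 CPM to 10.6, 10.7, 11.1 and 11.6 CPM (2.19 ± 0.19, adjusted p = 0.000685). In each of these RNAs, chosen for their large difference, every b sample lay above every a sample (no overlap in 33.3% of all genes tested). The b samples of Snord15a and Snord47 were nearly equal. Snord17, the longest of those shown, had 13.4, 16.2, 12.1 and 12.8 CPM in a and 41.6, 40.5, 43.4 and 38.1 CPM in b (1.59 ± 0.11, adjusted p = 0.00034). Snord87 was more uneven, with 28.4, 16.2, 5.65 and 9.11 CPM in a and 73.7, 62.5, 61.9 and 176 CPM in b (2.73 ± 0.44, adjusted p = 0.00358). Snord104 went the other way, from 4.18, 5.04, 4.49 and 3.55 CPM in a to 1.72, 1.76, 1.97 and 2.06 CPM in b (-1.19 ± 0.21, adjusted p = 0.00468). Snord87 and Snord104 did not overlap between batches either. A read, at 47 aligned bases, covers most of the shortest RNAs shown.

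Among all 83 tested small nucleolar and Cajal body RNAs of 107 in the table, 41 rose and 4 fell in b at an adjusted p under 0.05, and the median log2 difference was 0.69. At that threshold 18.6% of all genes rose and 17.1% fell. Of 50 C/D-class (Snord) genes 26 rose and 1 fell (median 0.93), and of 30 H/ACA-class (Snora) genes, which guide pseudouridylation, 14 rose and 2 fell (median 0.58). A total of 73 of the 83 RNAs had an annotated position. Of these, 28 held both boxes as spelled above, in that order, and of the 28, 15 rose and 2 fell, and of the 45 without them, H/ACA RNAs included, 22 rose and 2 fell. Windows of the same length directly after each RNA held both boxes in 1 of 73. Without the WT pair 40 of the 83 RNAs rose and 7 fell (median 0.57), against 21.2% and 20.9% of all genes. Offsets for GC content and length were also fitted, with which 10.7% of 13531 genes were higher in b and 6.59% were higher in a at an adjusted p under 0.05. With these offsets 14 of the 73 RNAs rose and 9 fell. With offsets for GC content alone, an alternative chosen after seeing the data, 26 rose and 2 fell. Under the offsets for GC content and length Snord15a, Snord82, Snord47 and Snord17 were at 2.52, 1.68, 0.94 and 1.46.

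The host genes moved far less than the RNAs in their introns. For 67 of the small RNAs 1 tested gene on the same strand contained them, 47 different hosts in all. The small RNA differed more toward b than its host in 50 of the 67, with medians of 0.75 for the small RNAs and 0.16 for the hosts. Snord15a lies in Rps3, a ribosomal protein gene with a difference of -0.21 (adjusted p = 0.109), and Snord82 lies in Ncl, which encodes nucleolin, at 0.43 (adjusted p = 0.0184). Snord17 lies in Snx5, a sorting nexin gene, at 0.56 (adjusted p = 0.0215), and Snord47 in the noncoding Gas5 at 0.79 (adjusted p = 0.00319). The 35 small RNAs that rose had 27 different hosts, of which 13 rose, 1 fell and 13 did not pass the test, with a median of 0.21.

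**Figure D1:**
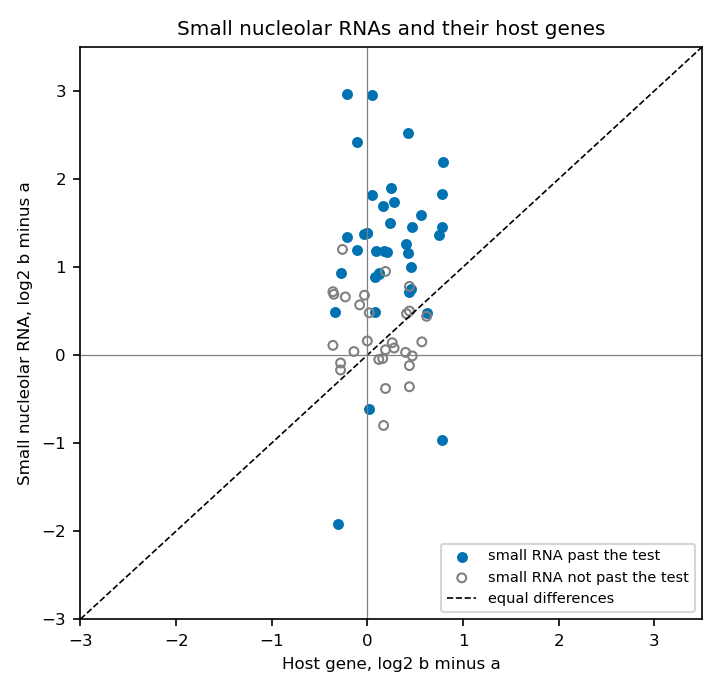
Log2 difference (b minus a) of 67 small nucleolar RNAs (vertical axis) against that of the annotated host gene (horizontal axis), 1 point per small RNA, with filled points for small RNAs past an adjusted p of 0.05. Most points lie above the dashed line of equal differences: the small RNA differed more toward b in 50 of the 67, with a median of 0.75 against 0.16 for the hosts.

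Of 47 tested microRNA genes (of 525 in the table) 16 rose and 3 fell, against 18.6% and 17.1% of all genes, with a median of 0.44. Offsets for GC content and length left 4 that rose and 4 that fell of 34, with a median of 0.08. Without offsets and without the WT pair, 14 of the 47 rose and 4 fell. Mature microRNAs are shorter than the 47 bases aligned per read, so a mature microRNA cannot fill a read. Mir684-1, counted over 766 exonic bases, had 0.6705, 0.283, 0.203 and 0.358 CPM in a and 6.74, 7.06, 9.39 and 5.75 CPM in b (4.27 ± 0.35, adjusted p = 0.000598), from 7 to 21 counts per sample in a and 81 to 124 in b. Mir703 had 0.926, 0.311, 0.521 and 0.986 CPM in a and 4.86, 6.83, 7.19 and 4.404 CPM in b (3.11 ± 0.39, adjusted p = 0.00165). Mir16-1, of a widely expressed family known to repress cell cycle genes, had 0.511, 0.226, 0.174 and 0.269 CPM against 2.66, 1.84, 1.29 and 1.35 CPM (2.61 ± 0.30, adjusted p = 0.00137). Its reads were few, from 6 to 16 counts per sample in a and from 17 to 34 in b. Each of the 3, chosen for their low p, was higher in every b sample than in any a sample (no overlap in 33.3% of all genes tested). The mature sequences of the last 2 from RefSeq (GRCm38.p6) have different seeds (bases 2 to 8, in capitals).
mmu-miR-703: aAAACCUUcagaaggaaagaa
mmu-miR-16-5p: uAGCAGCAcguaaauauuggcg

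Among 9 other structured RNAs tested, 3 rose and 2 fell, and 4 rose and 1 fell without the WT pair. Rpph1, the RNA of ribonuclease P, which trims the start of transfer RNAs, rose from 11.1, 12.8, 11.5 and 10.3 CPM to 36.5, 44.2, 47.6 and 40.8 CPM (1.89 ± 0.10, adjusted p = 0.000305). The related Rprl3, counted over 594 exonic bases, was among the most abundant RNAs in the table and fell from 8309, 9593, 6120.1 and 5806 CPM to 2354, 2319, 1993 and 2141 CPM (-1.73 ± 0.12, adjusted p = 0.000305). Without the WT pair the differences were 1.94 and -1.7. Rprl3 and Rpph1 did not overlap between batches. Rnu73b rose from between 0.141 and 0.319 CPM to between 0.639 and 1.57 CPM (2.29 ± 0.39, adjusted p = 0.00408). It had few reads, from 5 to 11 counts per sample in a and from 9 to 20 in b. Rnu1b2, a gene named for the spliceosomal U1 RNA and counted over 1172 exonic bases, rose from 30.4, 29.8, 21.2 and 26.6 CPM to 127, 224, 173 and 91.5 CPM (2.45 ± 0.21, adjusted p = 0.000685). Reads from near-identical copies of such RNAs were placed at 1 copy at random, so a single copy's level is uncertain.

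Of 22 long noncoding RNAs tested, 9 rose and 0 fell in b by edgeR at an adjusted p under 0.05, against 18.6% and 17.1% of all genes, with a median of 0.54 (0 fell at an unadjusted p under 0.05, and 0 by DESeq2 or limma-trend). Several of them stay in the nucleus or host small nucleolar RNAs. Snhg14, which spans small nucleolar RNA clusters, had 40.5, 37.7, 30.7 and 38.1 CPM in a and 137, 135, 139 and 109.7 CPM in b (1.83 ± 0.11, adjusted p = 0.000305). The antisense RNA Kcnq1ot1, which silences an imprinted cluster in cis, had 80.2, 87.9, 108 and 106 CPM against 306, 234, 213 and 207 CPM (1.32 ± 0.16, adjusted p = 0.00148). Snhg1 rose from between 219 and 328 CPM to between 428 and 508 CPM (0.75 ± 0.11, adjusted p = 0.00282). Snhg1 did not pass with the GC content and length offsets (0.38, adjusted p = 0.0713), and Snhg14 was at 0.99 with them (adjusted p = 0.0014). The GC value of Snhg14 came from a short annotated entry at chr7:66572581-66572689, while its reads were counted over 7764 exonic bases. Its value with the offsets is therefore uncertain. The summed level of the list did not overlap between batches, from 5540 to 9610 CPM in a and from 11800 to 13000 CPM in b. Without the WT pair 10 of the 22 rose, against 21.2% of all genes.

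Among the gene lists described, core histones held the largest share of members that fell (68.4%). Histones package DNA, and their replication-dependent genes are transcribed in S phase into mRNAs that end in a stem-loop and not in a poly(A) tail. Of 57 core histone genes, all tested, 39 fell and 1 rose in b, with a median of -0.48, and 47 fell and 1 rose without the WT pair, where 20.9% of all genes fell and 21.2% rose. Their summed level was between 10500 and 13100 CPM in a and between 7950 and 8210 CPM in b. Hist2h4, an H4 gene at chr3:96065627-96067234, fell from 111, 113, 142 and 148 CPM to 35.3, 36.9, 35.3 and 32.6 CPM (-1.87 ± 0.11, adjusted p = 0.000305). Hist2h3b, an H3 gene, fell from 91.2, 77.2, 79.8 and 100.1 CPM to 35.02, 31.1, 32.03 and 31.5 CPM (-1.42 ± 0.09, adjusted p = 0.000305). The H2B gene Hist1h2bg, at chr13:23663265-23663882, fell from 404, 484, 560.4 and 564 CPM to 183, 194, 172 and 214 CPM (-1.39 ± 0.10, adjusted p = 0.000404). In these 3 genes, chosen for their low p, each b sample lay below every a sample (no overlap in 33.3% of all genes tested). The gene that rose, Hist4h4, named after its values were seen, went from 25.7, 21.9, 20.2 and 21.9 CPM to 43.3, 35.2, 32.3 and 30.8 CPM (0.65 ± 0.09, adjusted p = 0.00237). Near-identical histone copies share reads under random placement, so single copies are uncertain. With offsets for GC content and length 22 fell and 2 rose, and with those for GC content alone 16 fell and 4 rose.

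A stem-loop was looked for in each histone gene and the 150 bases after it, on the strand of the gene, as GGCTCTTTTNAGAGCC, GGCCCTTTTNAGGGCC or GGTCCTTTTNAGGACC. In the last 150 bases of a gene and the 150 after it, such a match lay in 36 of 57 histone genes (63.2%) and in 4 of 12617 other tested genes (0.0317%). Over the whole gene it was found in 53 of the 57, of which 37 fell and 1 rose, and of the 4 without a match 2 fell. How often it lies in other genes as a whole was not counted. The 3 named genes all carried it. Relative to the annotated end of the gene it ended at 9 in Hist2h3b, -155 in Hist1h2bg and -1235 in Hist2h4. In Hist1h2bg and Hist2h4 it thus lay outside the last 150 bases. It is shown here in NCBIM37 with the stem-loop in capitals.
Hist2h4: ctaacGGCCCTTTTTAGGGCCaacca
Hist2h3b: acaaaGGCTCTTTTCAGAGCCaccta
Hist1h2bg: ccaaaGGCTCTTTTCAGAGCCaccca
Hist2h3b and Hist1h2bg share the same hairpin, and that of Hist2h4 differs in its stem and loop.

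Slc24a5, a sodium, potassium and calcium exchanger at chr2:124893860-124914413, rose from 1.95, 1.75, 1.68 and 1.43 CPM to 14.03, 10.9, 10.5 and 7.67 CPM (2.64 ± 0.17, adjusted p = 0.000305). Gm6644, a gene annotated as a pseudogene at chr1:55500577-55501908, rose from 1.25, 0.905, 1.303 and 1.14 CPM to 7.29, 8.28, 6.29 and 5.33 CPM (2.55 ± 0.23, adjusted p = 0.000704). Ttn, which encodes the giant muscle protein titin, rose from 99.3, 57.3, 37.1 and 28.9 CPM to 293, 218, 194 and 139 CPM (2.03 ± 0.14, adjusted p = 0.000305). Per length it was a low transcript, at 0.512 RPKM in a and 1.94 RPKM in b. Rpl22l1, a paralogue of a ribosomal protein gene at chr3:28704358-28706274, rose from 13.2, 11.9, 10.6 and 14.8 CPM to 43.6, 51.3, 56.3 and 50.4 CPM (2.00 ± 0.13, adjusted p = 0.000305). In each of these genes, chosen for their large difference, no b sample overlapped an a sample (no overlap in 33.3% of all genes tested). With offsets for GC content and length the differences of Slc24a5, Gm6644, Ttn and Rpl22l1 were 2.42, 2.73, 0.82 and 1.6.

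Among the genes with the largest falls in b were 2 genes of cilia and an epoxide hydrolase. Foxj1, the main transcription factor of motile cilia, fell from 4.53, 3.62, 6.31 and 7.26 CPM to 1.802, 0.997, 0.682 and 1.78 CPM (-2.05 ± 0.29, adjusted p = 0.00253). B9d2, a protein of the ciliary transition zone, fell from 4.21, 7.55, 8.197 and 5.85 CPM to 1.41, 1.53, 1.74 and 1.92 CPM (-1.93 ± 0.21, adjusted p = 0.00122). Ephx1, an epoxide hydrolase at chr1:182906286-182951035, fell from 6.26, 26.9, 47.8 and 50.7 CPM to 5.17, 7.06, 4.16 and 7.74 CPM (-2.18 ± 0.43, adjusted p = 0.00695). In that gene the fall was carried by the KO-derived lines, since WT a was within the range of the b samples, and the difference without the WT pair was -2.69 (adjusted p = 0.000516). Whether WT differed from those lines in Ephx1 was tested, and the difference of 2.42 ± 0.54 on the log2 scale did not pass (adjusted p = 0.183). Sirpa, a receptor for CD47, had 1.37, 3.59, 7.62 and 7.97 CPM in a and 1.02, 1.38, 1.97 and 1.49 CPM in b (-1.65 ± 0.31, adjusted p = 0.00607), also with an overlap through WT a. The kelch gene Klhdc7a fell from 1.25, 1.697, 7.62 and 10.3 CPM to 0.4701, 0.767, 0.757 and 2.13 CPM (-2.17 ± 0.35, adjusted p = 0.00357), with WT a and Hmga1 KO a below the highest b sample.

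Dll3, a Notch ligand, fell from between 5.02 and 6.93 CPM to between 1.28 and 2.19 CPM (-1.82 ± 0.21, adjusted p = 0.00138). Lrp3, of the low-density lipoprotein receptor family, fell from between 4.598 and 10.1 CPM to between 1.74 and 2.301 CPM (-1.91 ± 0.26, adjusted p = 0.00204). Rab3il1, an exchange factor for small GTPases, fell from between 7.89 and 30.2 CPM to between 4.54 and 5.83 CPM (-1.67 ± 0.30, adjusted p = 0.00505). Anxa8, an annexin that binds phospholipids, fell from between 3.13 and 11.3 CPM to between 1.67 and 2.49 CPM (-1.65 ± 0.29, adjusted p = 0.00466). In these 4 genes WT a was the lowest or next to lowest of the a samples and no b sample reached the lowest a sample. Of the 24 genes named for the size of their difference, 21 showed no overlap between batches, against 33.3% of all genes tested, and the size chose them.

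**Figure D2:**
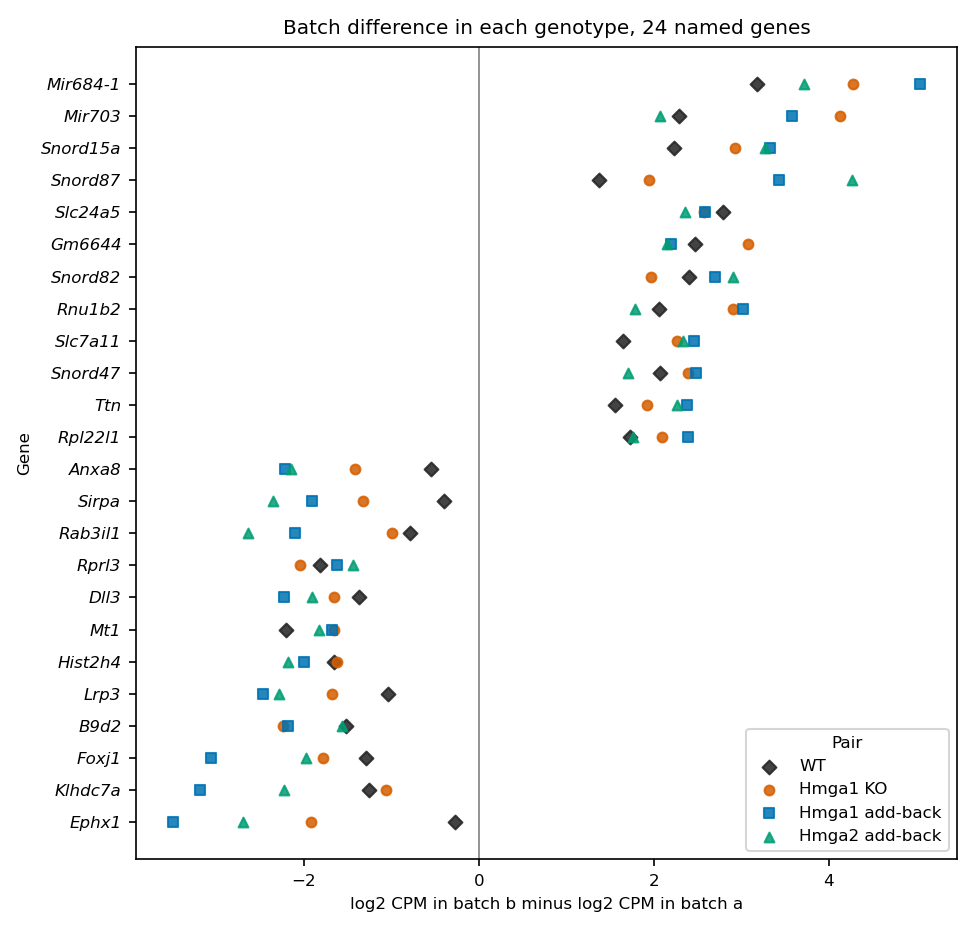
Log2 CPM in batch b minus log2 CPM in batch a (horizontal axis) for the 12 genes with the largest difference in each direction (vertical axis), 1 symbol per genotype. All 4 pairs lie on the same side of 0 for each gene by the rule that chose them. The WT pair lies nearest to 0 for many genes of both directions, such as Snord15a, Ttn, Lrp3, Ephx1, Sirpa and Anxa8. For others, such as Snord47 and Mt1, it does not.

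Metallothioneins bind zinc and are known to follow its supply. Mt1, at chr8:96702989-96704225, fell from 247, 162, 146 and 216 CPM to 53.4, 51.5, 45.4 and 60.6 CPM (-1.84 ± 0.11, adjusted p = 0.000305). Mt2 fell from 359, 194, 156 and 224 CPM to 115, 113, 97.7 and 138 CPM (-0.95 ± 0.16, adjusted p = 0.00388), and Slc39a10, a zinc importer, rose from 196, 153, 147 and 143 CPM to 264, 234, 250.5 and 209 CPM (0.59 ± 0.08, adjusted p = 0.0022). Of the 6 zinc genes tested 3 fell and 2 rose, with the same counts without the WT pair. Both metallothioneins were highest in WT a, and their falls remained called without the WT pair (-1.72 and -0.72).

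Targets of NRF2, the regulator of the antioxidant response, fell in 9 and rose in 1 of 15 tested, with a median of -0.37. Ftl1, the light chain of the iron store ferritin, fell from 1300.5, 1324, 1834 and 1510.4 CPM to 489.6, 491, 474 and 476 CPM (-1.61 ± 0.11, adjusted p = 0.000305). Gsta4, a glutathione transferase, fell from between 436 and 505 CPM to between 291 and 336 CPM (-0.55 ± 0.08, adjusted p = 0.0025). The member that rose was Slc7a11, the cystine importer, from 3.13, 1.499, 1.04 and 1.05 CPM to 9.95, 7.52, 6.13 and 5.61 CPM (2.22 ± 0.21, adjusted p = 0.000821). Slc7a11 is also a target of ATF4, the regulator of the response to amino acid shortage, and of 28 ATF4 targets 9 rose and 3 fell (median 0.25). Mthfd2, a mitochondrial folate enzyme of that list, rose from 123, 116, 77.7 and 76.3 CPM to 152, 173, 166 and 151 CPM (0.74 ± 0.13, adjusted p = 0.0048). Without the WT pair 5 of the NRF2 targets fell and 1 rose, and 13 of the ATF4 targets rose and 3 fell. Of all genes 20.9% fell and 21.2% rose in that fit.

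Targets of p53, the sensor of DNA damage, fell in 9 of 19 by edgeR at an adjusted p under 0.05, with a median of -0.51. Of the 19, 0 rose by edgeR (0 also at an unadjusted p under 0.05, by DESeq2 and by limma-trend). In the fit without the WT pair 16 fell, against 20.9% of all genes. Sesn2 had 114, 109, 102 and 101 CPM in a and 83.1, 73.01, 69.2 and 70.97 CPM in b (-0.53 ± 0.07, adjusted p = 0.00223). Gtse1, which is expressed in G2 and restrains p53, fell from between 267 and 309.9 CPM to between 164 and 208 CPM (-0.66 ± 0.10, adjusted p = 0.00276). Trp73, a relative of p53, fell from between 3.38 and 7.35 CPM to between 1.14 and 2.12 CPM (-1.61 ± 0.32, adjusted p = 0.00717). In each of the 3 genes, chosen for their low p, all b samples lay below all a samples (no overlap in 33.3% of all genes tested). With offsets for GC content and length, Sesn2 was at -0.05 (adjusted p = 0.692). Of the list 7 fell and 1 rose with them, against 6.59% and 10.7% of all genes.

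Interferon response genes fell in 5 and rose in 2 of 13 tested (of 22 in the table). The shares were 38.5% and 15.4%, against 17.1% and 18.6% of all genes. Without the WT pair 7 fell and 2 rose, against 20.9% and 21.2% of all genes. Ifitm1, a membrane protein that restricts virus entry, had 62.7, 136, 95.3 and 126 CPM in a and 53.6, 53.3, 37.2 and 40.1 CPM in b (-1.15 ± 0.21, adjusted p = 0.00505). Its relative Ifitm3 fell from between 29.6 and 38.4 CPM to between 17.1 and 25.6 CPM (-0.64 ± 0.14, adjusted p = 0.00927). Bst2, which tethers virus particles, had 15.01, 27.7, 25.4 and 24.9 CPM in a and 14.1, 16.6, 14.01 and 11.3 CPM in b (-0.71 ± 0.17, adjusted p = 0.0135), and the groups overlapped through WT a. Bst2 did not pass with the GC content and length offsets (-0.45, adjusted p = 0.0765).

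Immediate early genes, which serum and handling induce within minutes, fell in 6 and rose in 0 of 20 by edgeR at an adjusted p under 0.05 (median -0.43; 1 rose at an unadjusted p under 0.05, and 0 by DESeq2 or limma-trend), and fell in 8 and rose in 1 without the WT pair. Jund, a subunit of AP-1, fell from 70.4, 62.2, 75.7 and 65.7 CPM to 38.6, 35.7, 31.1 and 39.9 CPM (-0.92 ± 0.11, adjusted p = 0.00141). The phosphatase gene Dusp1 fell from 22.4, 20.7, 35.6 and 38.7 CPM to 12.1, 17.3, 16.4 and 18.4 CPM (-0.84 ± 0.15, adjusted p = 0.00535). Ier2 fell from between 69.5 and 93.5 CPM to between 50.1 and 63.3 CPM (-0.42 ± 0.09, adjusted p = 0.00996). Of all genes 17.1% fell and 18.6% rose over all pairs, and 20.9% and 21.2% without the WT pair. With the GC content and length offsets 2 of the list fell and 2 rose, and Ier2 was at 0.059 (adjusted p = 0.724).

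Hypoxia response genes rose in 7 of 17 tested and fell in 0 by edgeR at an adjusted p under 0.05 (median 0.25; 0 fell at an unadjusted p under 0.05, and 0 by DESeq2 or limma-trend), and without the WT pair 6 rose and 1 fell. Bnip3, which marks mitochondria for removal, differed in level between lines and rose within each, from 4.79, 20.7, 9.93 and 10.7 CPM to 13.01, 38.3, 14.9 and 20.9 CPM (0.96 ± 0.15, adjusted p = 0.00296). Its relative Bnip3l rose from between 57.8 and 83.3 CPM to between 82.7 and 105 CPM (0.40 ± 0.08, adjusted p = 0.00567), and Pdk1, which limits the entry of pyruvate into mitochondria, from between 219.8 and 301 CPM to between 305 and 379 CPM (0.40 ± 0.08, adjusted p = 0.00751). The batches overlapped in Bnip3 and Bnip3l but not in Pdk1. Of all genes 18.6% rose and 17.1% fell over all pairs, and 21.2% and 20.9% without the WT pair. Under offsets for GC content and length 6 of the list rose and 0 fell by edgeR (0 also at an unadjusted p under 0.05), and Bnip3l did not pass (0.13, adjusted p = 0.303).

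Cholesterol synthesis genes fell in 8 and rose in 2 of 25, and fell in 11 and rose in 2 without the WT pair. Of all genes 17.1% fell and 18.6% rose, and 20.9% and 21.2% without that pair. Dhcr7, the enzyme of the last step, had 25.8, 46.7, 53.6 and 48 CPM in a and 19.7, 23.6, 24 and 21.95 CPM in b (-0.92 ± 0.14, adjusted p = 0.00276). Mvd, an enzyme of the mevalonate part of the pathway, had 38.8, 64.1, 64.7 and 60.5 CPM in a and 31.97, 37.04, 38.5 and 31.7 CPM in b (-0.69 ± 0.12, adjusted p = 0.00398). In both genes WT a was well below the other a samples. Acat2, which makes acetoacetyl-CoA, rose from between 57.4 and 64.7 CPM to between 77.2 and 87.1 CPM (0.44 ± 0.07, adjusted p = 0.00388). With the GC content and length offsets 3 fell and 2 rose of 24, and Mvd did not pass (-0.24, adjusted p = 0.15).

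Of 37 proteasome subunit genes 17 rose and 2 fell (median 0.29). With the WT pair left out 19 rose and 1 fell, against 21.2% and 20.9% of all genes. Psma4 rose from 229, 264, 256 and 222 CPM to 361, 368, 404 and 369 CPM (0.63 ± 0.08, adjusted p = 0.00157), Psma2 from between 87.6 and 112 CPM to between 161 and 188 CPM (0.80 ± 0.10, adjusted p = 0.00164), and Psmd14 from between 75.8 and 121 CPM to between 155 and 177 CPM (0.87 ± 0.12, adjusted p = 0.00224). Of 33 genes of ribosome biogenesis 12 rose and 1 fell (median 0.23). Dkc1, the pseudouridine synthase of H/ACA particles, rose from 372, 321, 258 and 269.7 CPM to 500.1, 457, 498 and 468 CPM (0.67 ± 0.10, adjusted p = 0.00289). Nop58, a core protein of C/D particles, rose from 835, 853, 612 and 576 CPM to 1243, 1136, 1304 and 1193 CPM (0.78 ± 0.13, adjusted p = 0.00351), and Wdr43 from between 307 and 451 CPM to between 562 and 648 CPM (0.70 ± 0.12, adjusted p = 0.00391). In these 6 genes the batches did not overlap, against 33.3% of all genes tested, and the low p chose them. Without the WT pair 13 of the biogenesis genes rose and 1 fell. With the GC content and length offsets 14 proteasome genes rose and 1 fell of 35, and 15 biogenesis genes rose and 0 fell by edgeR (0 also at an unadjusted p under 0.05).

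Of 85 cytosolic ribosomal protein genes 26 rose and 22 fell, with a median of 0.03 (18 rose and 36 fell with scaling by summed counts alone). Rpl35 fell from 261, 347, 320.4 and 346 CPM to 148, 147, 157 and 129 CPM (-1.13 ± 0.11, adjusted p = 0.000761) and Rpl18 from 284, 335, 331 and 333 CPM to 160.2, 183, 183 and 143 CPM (-0.94 ± 0.09, adjusted p = 0.000761), while Rpl22l1 rose as given above. Of 78 respiratory chain genes 22 rose and 17 fell (median 0.1; 15 and 24 with that scaling). Cox8a, a subunit of complex IV, fell from 199, 216, 226 and 221 CPM to 94.2, 99.2, 95.6 and 85.4 CPM (-1.20 ± 0.08, adjusted p = 0.000305), whereas Atp5k, a subunit of the ATP synthase, rose from 13.7, 16.2, 17.1 and 16.01 CPM to 31.8, 35.05, 47.1 and 47.5 CPM (1.34 ± 0.11, adjusted p = 0.000598). Ndufa5 of complex I rose from between 7.14 and 8.91 CPM to between 17.9 and 23.4 CPM (1.29 ± 0.13, adjusted p = 0.00106). Without the WT pair 24 of the ribosomal protein genes rose and 24 fell, and 22 of the respiratory chain genes rose and 17 fell. Of all genes 18.6% rose and 17.1% fell over all pairs, and 21.2% and 20.9% without the WT pair.

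Of 24 S phase genes 5 rose (20.8%) and 3 fell (12.5%), close to the 18.6% and 17.1% of all genes, and of 25 genes of G2 and mitosis 8 rose and 7 fell. Without the WT pair 8 rose and 3 fell in the first list, and 9 rose and 7 fell in the second. In that fit 21.2% of all genes rose and 20.9% fell. With scaling by summed counts alone 4 rose and 6 fell in the first list, and 5 rose and 8 fell in the second. Under offsets for GC content and length 5 rose and 2 fell in the first, and 3 rose and 2 fell in the second. Pola1, of DNA polymerase alpha, rose from 188, 186, 162 and 170.2 CPM to 289, 300, 319.6 and 327 CPM (0.81 ± 0.09, adjusted p = 0.0012), and Tipin, of the replication fork, from between 209 and 270.3 CPM to between 333 and 366 CPM (0.52 ± 0.09, adjusted p = 0.00495). With the offsets Tipin did not pass (0.11, adjusted p = 0.325). In mitosis, Top2a, the topoisomerase that untangles chromosomes, rose from 1267, 1324, 1200.4 and 1187 CPM to 1925, 2033, 1946 and 2014 CPM (0.67 ± 0.08, adjusted p = 0.00137). Ube2c, a ubiquitin-conjugating enzyme of the anaphase-promoting complex, fell from 415, 512, 357 and 352 CPM to 229, 201, 167 and 198 CPM (-1.03 ± 0.10, adjusted p = 0.000881). Aurkb, a mitotic kinase, fell from between 81.6 and 93.4 CPM to between 58.8 and 69.7 CPM (-0.48 ± 0.07, adjusted p = 0.003).

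Zinc finger genes of the Zfp series, most of which encode DNA-binding repressors, rose in 143 and fell in 34 of 346 tested (median 0.27). Zfp976 rose from 35.2, 32.1, 33.7 and 30.02 CPM to 68.7, 69.3, 73.2 and 63.9 CPM (1.07 ± 0.08, adjusted p = 0.000495), Zfp758 from between 12.4 and 15.1 CPM to between 33.5 and 41.5 CPM (1.43 ± 0.11, adjusted p = 0.000495), and Zfp966 from between 25.04 and 32.5 CPM to between 52.8 and 62.7 CPM (1.01 ± 0.08, adjusted p = 0.000598). Germline genes rose in 11 and fell in 1 of 20 (median 0.55). Stk31, a kinase-like protein of germ cells, rose from 10.4, 11.5, 7.82 and 7.62 CPM to 15.5, 26.5, 33.8 and 27.8 CPM (1.45 ± 0.24, adjusted p = 0.00357). Smc1b, a cohesin subunit of meiosis, was low in WT in both batches and rose within each line, from 6.96, 33.1, 15.3 and 31.8 CPM to 17.7, 49.01, 31.05 and 51.6 CPM (0.89 ± 0.14, adjusted p = 0.00295). Tuba3a, a testis tubulin and the member that fell, had 4.41, 37.1, 25.7 and 30.4 CPM in a and 3.13, 16.9, 11.7 and 17.7 CPM in b (-0.93 ± 0.13, adjusted p = 0.00265). With the GC content and length offsets, 54 Zfp genes rose and 8 fell of 340, and 3 germline genes rose and 1 fell, with Smc1b no longer past the test (0.47, adjusted p = 0.0539). Zfp976, Zfp758 and Zfp966 were at 0.57, 0.72 and 0.39 with these offsets. Without offsets and without the WT pair, 149 Zfp genes rose and 36 fell, and 12 germline genes rose and 1 fell. Of all genes 18.6% rose and 17.1% fell over all pairs, and 21.2% and 20.9% without the WT pair.

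**Figure D3:**
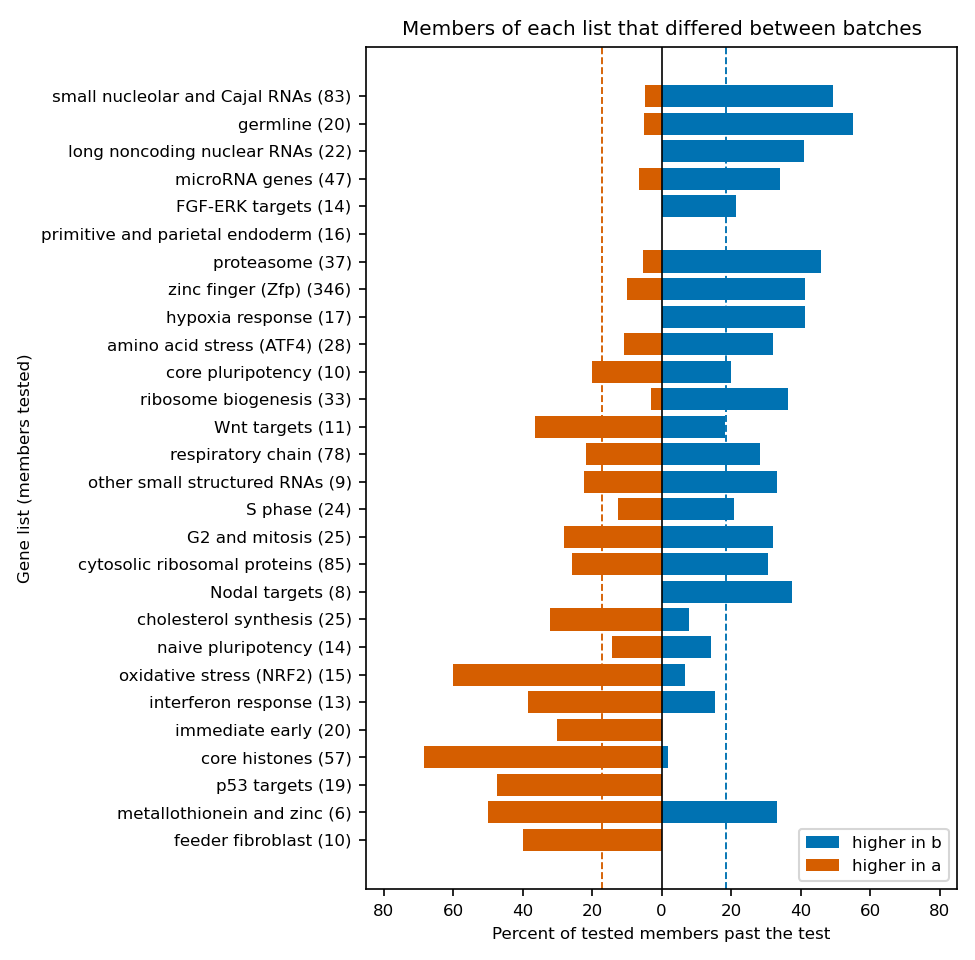
Percent of the tested members of each gene list (vertical axis, members tested in brackets) past an adjusted p of 0.05, higher in b to the right and higher in a to the left (horizontal axis, percent), with dashed lines at the shares of all genes tested, 18.6% and 17.1%. Core histones reach furthest to the left, with 39 of 57, and germline genes and small nucleolar RNAs furthest to the right, with 11 of 20 and 41 of 83.

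The direction of a gene went with the base composition of its transcript, in every pair. Exonic GC content was known for 13531 of the 13898 genes. Its median was 50.3% over all genes tested, 42.8% over the genes at least 2-fold higher in b and 56.9% over those at least 2-fold higher in a. In the decile of genes lowest in GC (32.2% to 42%) 61.1% of the genes were higher in b at an adjusted p under 0.05 and 0.591% were higher in a. In the highest decile (58.1% to 73.9%) 1.11% were higher in b and 43.5% were higher in a. From the lowest to the highest decile the median log2 difference went from 0.36 to -0.33 in WT, from 0.47 to -0.36 in Hmga1 KO, from 0.53 to -0.56 in the Hmga1 add-back and from 0.41 to -0.46 in the Hmga2 add-back. Across genes, which share the libraries and are not independent, the correlation of the difference with GC content was -0.411, -0.453, -0.476 and -0.439 in the 4 pairs, and with the log2 of length between -0.0339 and 0.0828.

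**Figure D4:**
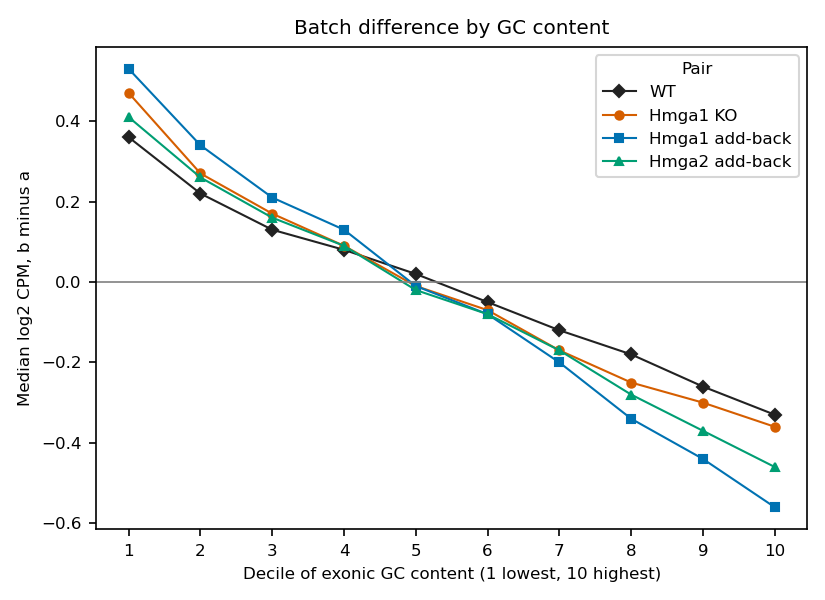
Median log2 CPM difference, b minus a (vertical axis), in 10 equal groups of genes ordered by exonic GC content (horizontal axis), 1 line per genotype pair. All 4 lines fall from above 0 in the lowest decile (0.36 to 0.53) to below 0 in the highest (-0.33 to -0.56), the WT line included.

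The same direction was seen inside gene groups, strongly in some and weakly in others. Across the 340 Zfp genes with a GC value the correlation of the difference with GC content was -0.779, and the Zfp genes that rose had a median of 40% GC against 57.7% for those that fell. It was -0.763 across 25 genes of G2 and mitosis (42.9% against 53.2%), -0.766 across 20 germline genes, -0.719 across 33 biogenesis genes and -0.699 across 28 ATF4 targets. Ribosomal protein genes (83, -0.531) were less strongly ordered, and respiratory chain genes (77, -0.203) and core histones (57, -0.164) less again. Small nucleolar RNAs (73, -0.403), microRNA genes (34, -0.388), proteasome genes (35, -0.318) and immediate early genes (20, -0.226) were also weakly ordered. Histone genes were GC-rich as a whole, with a median of 59.5%. With offsets for GC content and length, 94 genes passed the 2-fold threshold at an adjusted p under 0.01, 51 higher in b and 43 higher in a, and 75 of them were among the 325. Of the 309 called genes with a GC value, 273 kept their sign at an adjusted p under 0.05 with these offsets. Depth differed between the batches as well, and with every library thinned to the size of the smallest 298 genes passed.

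The 10 core factors, which define the labelled cell type, summed to between 3260 and 4290 CPM in a and between 3900 and 4110 CPM in b. Of these 2 rose and 2 fell (20% each), near the 18.6% and 17.1% of all genes. With the WT pair left out 4 rose and 3 fell, against 21.2% and 20.9% of all genes. Dppa4, a chromatin protein of pluripotent cells, rose from 105, 107, 87.7 and 82.6 CPM to 144, 137, 141 and 136 CPM (0.55 ± 0.09, adjusted p = 0.00339). Utf1 fell from 121, 102, 82.1 and 73.4 CPM to 74.4, 68.6, 63.5 and 57.6 CPM (-0.50 ± 0.09, adjusted p = 0.00476), and was at 0.0069 with the GC content and length offsets (adjusted p = 0.968). Nanog, a factor that varies between single ESC, fell from 264, 275, 258 and 271 CPM to 189.6, 203, 199.8 and 242 CPM (-0.36 ± 0.08, adjusted p = 0.0109). Of 14 naive-state genes 2 rose and 2 fell (14.3% each), near the shares of all genes, and 3 rose and 3 fell without the WT pair. Tcl1, a cofactor of the AKT kinase, fell from between 61.6 and 87.9 CPM to between 47.4 and 56.8 CPM (-0.60 ± 0.09, adjusted p = 0.00263), the nuclear receptor Nr5a2 rose from between 144 and 187 CPM to between 209.9 and 228 CPM (0.48 ± 0.08, adjusted p = 0.00379), and Esrrb fell from between 717 and 891 CPM to between 629 and 678 CPM (-0.30 ± 0.08, adjusted p = 0.0223). Esrrb was at 0.02 with those offsets (adjusted p = 0.874).

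Fibroblast markers bear on feeder cells. Of 21 that were counted, 10 passed the filter on low counts, and of these 4 fell and 0 rose by edgeR at an adjusted p under 0.05 (0 rose at an unadjusted p under 0.05, and 0 by DESeq2 or limma-trend), and their summed level was between 32.1 and 65.2 CPM in a and between 25.1 and 36.1 CPM in b. The defining matrix genes Dcn and Lum had 0 counts in all 8 samples, and Postn and Mgp had 2 and 1 counts in all. Mmp2, a matrix protease, had 7.79, 14.7, 21 and 22.2 CPM in a and 7.13, 9.05, 7.42 and 8.24 CPM in b (-0.95 ± 0.23, adjusted p = 0.0145). Fbln2 had 1.18, 5.52, 5.56 and 6.24 CPM against 1.18, 1.69, 2.04 and 2.06 CPM (-1.28 ± 0.29, adjusted p = 0.0119), and the collagen gene Col5a1 5.65, 12.3, 11.8 and 12.1 CPM against 5.56, 6.903, 6.44 and 7.39 CPM (-0.62 ± 0.17, adjusted p = 0.0255). In WT the values of a and b were close in all 3 genes, and in the KO-derived lines a was higher. The test of a different batch effect in WT did not pass for them (adjusted p = 0.313, 0.294 and 0.343). Without the WT pair 4 of the 10 markers fell, against 20.9% of all genes. With the GC content and length offsets 0 of the 10 markers passed by edgeR, and 3 fell at an unadjusted p under 0.05. The part of feeder RNA in the other results was not tested. In bulk RNA, fewer cells of a type and less RNA per cell cannot be told apart.

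Primitive and parietal endoderm is an extraembryonic lineage that ESC cultures can form. Of 16 genes of that lineage 0 changed by edgeR at an adjusted p under 0.05. Of the 16, 1 rose at an unadjusted p under 0.05, 1 by DESeq2 and 0 by limma-trend. With the WT pair left out 6 rose, against 21.2% of all genes. Cubn, an endocytic receptor of that lineage, had 79.02, 2.57, 15.8 and 22.6 CPM in a and 52.4, 37.7, 82.8 and 17.9 CPM in b (1.21 ± 0.70, adjusted p = 0.207). Lama1 had 272, 110.2, 132 and 187 CPM against 193, 216, 342 and 164 CPM (0.42 ± 0.29, adjusted p = 0.279), and Lamc1 854, 642, 630.1 and 653 CPM against 840.4, 829.8, 1006 and 750.1 CPM (0.31 ± 0.11, adjusted p = 0.0675). Without the WT pair the differences were 1.92, 0.73 and 0.42 (adjusted p = 0.0414, 0.045 and 0.0182). In all 3 genes WT a was the highest of the a samples.

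Signalling by FGF and ERK primes ESC for differentiation. Of 14 feedback targets of it, 3 rose by edgeR at an adjusted p under 0.05 (21.4%, near the 18.6% of all genes). By edgeR 0 fell (2 at an unadjusted p under 0.05, 1 by DESeq2 and 0 by limma-trend). With the WT pair left out 8 rose and 2 fell, against 21.2% and 20.9% of all genes. Spred1 had 175, 93.98, 84.3 and 77.1 CPM in a and 208, 174, 171 and 141 CPM in b (0.76 ± 0.13, adjusted p = 0.00388). Spry4, an inhibitor of the pathway, had 379.6, 210.4, 247 and 212 CPM against 397, 378, 413 and 334 CPM (0.58 ± 0.13, adjusted p = 0.0106), and the factor Etv1 19.4, 9.22, 7.04 and 5.38 CPM against 21.4, 18.02, 18.9 and 14.8 CPM (0.99 ± 0.22, adjusted p = 0.011). WT a lay within the range of the b samples in all 3.

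Of 8 Nodal targets 3 rose and 0 fell by edgeR at an adjusted p under 0.05 (0 fell at an unadjusted p under 0.05, and 0 by DESeq2 or limma-trend). Without the WT pair 2 rose and 2 fell, the latter Lefty1 and Lefty2 (-1.74 and -0.7). Skil, a repressor of SMAD proteins, rose from 356, 273, 314 and 313 CPM to 558, 525, 449 and 420.1 CPM (0.63 ± 0.10, adjusted p = 0.00304), the co-receptor gene Tdgf1 from 778, 1163, 961 and 817 CPM to 1028, 1255, 1132 and 1275 CPM (0.35 ± 0.10, adjusted p = 0.0285), and Smad7, an inhibitor of SMAD signalling, from between 81.3 and 103 CPM to between 93.1 and 129.5 CPM (0.28 ± 0.08, adjusted p = 0.032). The call of Tdgf1 was lost without the WT pair (0.33, adjusted p = 0.0555), and with the GC content and length offsets neither Skil nor Tdgf1 passed (both 0.19, adjusted p = 0.173 and 0.236). Of 11 Wnt targets 2 rose and 4 fell. Without the WT pair 4 rose and 4 fell, against 21.2% and 20.9% of all genes, and with those offsets 3 rose and 1 fell. Lef1, a transcription factor of the pathway, rose from 2.27, 4.64, 1.101 and 1.16 CPM to 7.68, 8.59, 6.66 and 5.896 CPM (1.84 ± 0.29, adjusted p = 0.00322), whereas Nkd1, a feedback inhibitor, fell from 3.19, 6.82, 7.62 and 6.18 CPM to 2.59, 2.91, 2.196 and 2.202 CPM (-1.21 ± 0.25, adjusted p = 0.00894). Tcf7 fell from between 33.6 and 46.8 CPM to between 25.1 and 30.9 CPM (-0.51 ± 0.13, adjusted p = 0.0171), and was at -0.24 with the offsets (adjusted p = 0.167).

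Whether WT and the KO-derived lines differed in their batch effect was tested as an interaction term, with 1 WT sample per batch and 2 residual degrees of freedom. By edgeR 0 genes passed the 2-fold threshold at an adjusted p under 0.01, 2 genes (0.0144% of 13898) passed an adjusted p under 0.05, and 1798 had an unadjusted p under 0.05. DESeq2 found 56 genes at the first threshold and limma-trend 0. The 8 genes with the lowest p, were named after their values were seen. WT enters with 1 pair, so the spread comes from the 3 KO-derived lines and WT is assumed to vary as they do. Gbx2, a homeobox gene of naive ESC, had 209.9, 38.2, 36.9 and 31.8 CPM in a and 127, 86.97, 109 and 92.4 CPM in b, so that it was lower in b in WT and higher in b in the other lines (difference between the effects, WT minus KO-derived, -2.16 ± 0.20, adjusted p = 0.0334). Nqo1, an antioxidant enzyme and NRF2 target, had 119 CPM in WT a and between 29.7 and 40.2 CPM in the other 7 samples (-1.88 ± 0.18, adjusted p = 0.0334).

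The other 6 did not pass an adjusted p of 0.05. Lefty1 and Lefty2 encode inhibitors of Nodal. Lefty1 had 7.12, 27.4, 54.2 and 49.5 CPM in a and 22.5, 12.2, 15.3 and 10.7 CPM in b (3.40 ± 0.38, adjusted p = 0.0533), and Lefty2 24.1, 71.3, 95.1 and 111 CPM against 62.9, 54.4, 58.6 and 54.99 CPM (2.08 ± 0.25, adjusted p = 0.0533). Bmp4, a ligand that acts with LIF in serum, had 53.3, 19.4, 17.96 and 14.9 CPM in a and 39.6, 47.2, 53.01 and 47.9 CPM in b (-1.94 ± 0.22, adjusted p = 0.0533). Soga3 had 35.7 CPM in WT a and between 3.68 and 4.78 CPM in the other a samples (-3.42 ± 0.41, adjusted p = 0.0533). Bcam, a laminin receptor, had 116 CPM in WT a and between 40.6 and 55.5 CPM in the other 7 samples (-1.52 ± 0.18, adjusted p = 0.0533), and Nkx6-3 18.6 CPM in WT a against between 3.59 and 9.31 CPM in the other 7 samples (-2.67 ± 0.35, adjusted p = 0.0809). In each of the 8 genes WT a was the highest or the lowest of all 8 samples, and WT b lay closer to the KO-derived b samples than WT a to the KO-derived a samples.

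**Figure D5:**
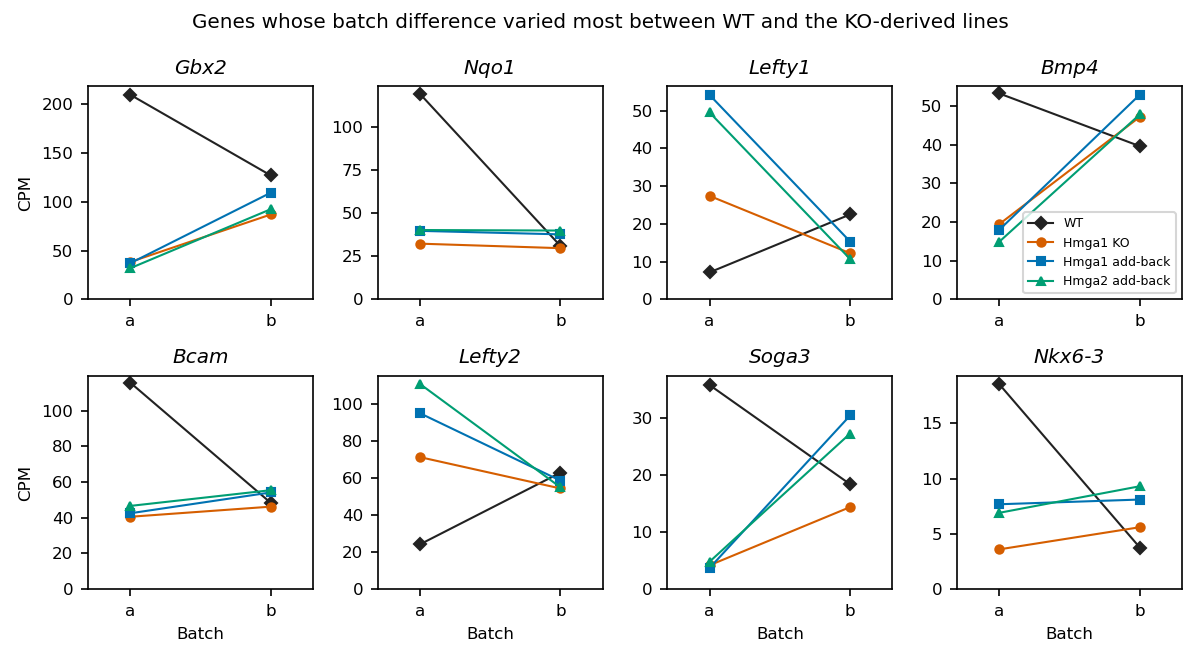
CPM in batch a and batch b (vertical axis, from 0) of the 8 genes with the lowest p in the test of a different batch effect in WT, 1 line per genotype. The WT line starts apart from the other 3 in batch a, as in Gbx2 (209.9 CPM against 31.8 to 38.2) and Lefty1 (7.12 against 27.4 to 54.2), and ends nearer to them in batch b.

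WT c, the only sample of a further batch, was not used in any test above. Over the 671 genes called in the KO-derived lines alone, WT c was above WT a in 185 of the 228 higher in b and below WT a in 357 of the 443 higher in a, against 49.6% above over all genes tested. The medians of WT c minus WT a were 0.48 and -0.44. For WT b minus WT a they were 0.72 and -0.39, and both comparisons share WT a. In single genes WT c lay with either batch. It had 23.8 CPM of Snord15a and 2174 CPM of Rprl3, near the b samples, and 146 CPM of Mt1 and 279 CPM of Mt2, above the b samples.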

How the data were processed

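RNA was taken from independent ESC cultures and made into stranded libraries from RNA depleted of ribosomal RNA, sequenced as single reads of 50 bases with bcl2fastq 2.17 named in the submitters' notes. The authors trimmed 3 bases, aligned the other 47 to mm9 (bowtie within QuasR) with 1 location drawn at random for reads that fit several, and counted same-strand reads per UCSC known gene. The deposited values are raw counts for 21662 genes.

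Genes averaging 10 or more counts over the 8 samples were tested with edgeR 4.0.16 (R 4.3.3, TMM, quasi-likelihood, terms for genotype and batch, Benjamini-Hochberg adjustment), after the procedure was tested on simulated data. The genotype term pairs samples of the same cell line. Deviations from the batch means correlated at 0.395, 0.235, -0.0899 and 0.221 between the samples of a line (WT, Hmga1 KO, Hmga1 add-back, Hmga2 add-back). The highest correlation of each a sample with the b sample of another line was 0.151, 0.0988, 0.213 and 0.127. In the Hmga1 add-back the sample of the same line was therefore not the closest. The chi-square per degree of freedom between samples was at least 4.76, so no 2 samples were repeats of 1 library. GC content and length came from the NCBIM37 annotation, where 20895 genes (96.5%) were matched by name, and were fitted as smooth offsets per sample. Alternatives used DESeq2 1.42.0, limma-trend (limma 3.58.1, prior count 2), other scalings, filters and thresholds, thinning, and fits without a sample or pair.

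Genes named are the 12 with the largest difference in each direction among those called, with the same sign in all pairs and at least 5 CPM in the higher batch, up to 3 members with the lowest p in each list, and Hmga1, Hmga2, Sox2 and Actb. The question, the lists and these rules were chosen with earlier results of these data known. The other 6 samples of the series enter only the closing section. One gene that the rule names is not reported here.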

Additional observations from a re-analysis of the deposited data

Results flagged for a closer look

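Gbx2 (-2.16 on the log2 scale) and Nqo1 (-1.88) passed the test of a different batch effect in WT at an adjusted p under 0.05. WT entered that test with 1 pair, and the spread came from the 3 KO-derived lines.

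In 16 of 218 groups of 4 samples (a named gene in 1 batch), 1 sample lay far from the other 3. Chance gives about 1 in 20, but the genes were not drawn by chance: Gbx2, Nqo1, Bcam and Soga3 were named for a difference of WT, and Hmga2 is expressed from the construct in its add-back. Of the 16, 10 were in WT a, which was low for Mvd (38.8 CPM), Rpl18 (284 CPM), Fbln2 (1.18 CPM), Col5a1 (5.65 CPM) and Sox2 (765 CPM), and high for Lamc1 (854 CPM), Gbx2 (210 CPM), Nqo1 (119 CPM), Bcam (116 CPM) and Soga3 (35.7 CPM). In batch b the Hmga1 add-back was low for Snord15a (17.9 CPM) and high for Ndufa5 (23.4 CPM), and the Hmga2 add-back was high for Snord87 (176 CPM) and low for Snhg14 (110 CPM). Hmga2 was high in the Hmga2 add-back in both batches (251 and 224 CPM).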

How the results depend on the processing

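The 325 calls became 671 without the WT pair, 20 without the Hmga1 KO pair, 119 without the Hmga1 add-back pair and 112 without the Hmga2 add-back pair, and between 15 and 667 with 1 sample left out. Fewer samples enter these fits, and the cause of the rise without WT was not tested. Offsets for GC content and length gave 94 calls, and those for GC content alone 87 (chosen after seeing the data). An adjusted p under 0.05 with the 2-fold minimum gave 629, and one under 0.01 with no minimum fold 2126. Without the genotype block, that is without the pairing, 303 genes were called. The other scalings, filters and tools gave between 270 and 410. For the difference between WT and the KO-derived lines the count of 0 became 56 with DESeq2, 6 without a filter, 2 with thinned counts, 2 at an adjusted p under 0.05 with or without the 2-fold minimum (the latter chosen after seeing the data), and between 0 and 264 with 1 sample left out. Gbx2 and Nqo1 lost their call when either Hmga1 add-back sample was left out. Over 101 named genes and all alternatives, 2153 of 2301 values kept their direction and their side of an adjusted p of 0.05, 123 lost the call and 20 gained one. Of called genes 3 changed sign: Ier2 (0.059 with GC content and length offsets, 0.062 with GC content alone), Utf1 (0.007 and 0.021) and Esrrb (0.019 with both offsets). Each batch is 1 round of library preparation and sequencing, so no fit separates culture, library preparation, flow cell and depth.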

Other observations

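In the second experiment of the series, with 3 WT and 3 full-deletion samples, the log2 difference of each sample from the mean of the 6 correlated with exonic GC content at -0.111, -0.286 and -0.195 in WT and at 0.261, 0.255 and 0.314 in the full deletion, across genes and with no test. In WT c minus WT a of the first experiment the correlation was -0.384.

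The WT pair moved at least 2-fold against the KO-derived lines in 15 of the 671 genes called in those lines, among them Aurkc, a meiotic Aurora kinase (2.62 in WT and -1.14 in the KO-derived lines on the log2 scale), and Pdgfra, a receptor of primitive endoderm and mesenchyme (-1.83 and 1.44). It moved at least 2-fold with them in 138. Both genes were chosen after their values were seen.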
